A study of Mus musculus with 2 samples.

Results

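The cells described here are the mouse embryonic stem (ES) cells with the highest summed share of 6 transcripts that mark the primed epiblast: *Dnmt3b*, *Otx2*, *Fgf5*, *Pou3f1*, *Pim2* and *Lef1*. They are called the marker-rich cells below. In each library the top 5% of eligible cells by that share were taken, which gave 68 of 1362 wild-type cells and 39 of 779 *Lin28a* knockout cells, or 107 of 2141 eligible cells among 10389 barcodes in all. The remaining 1294 and 740 eligible cells are the other cells of each comparison. The values for and against the name "primed-epiblast-leaning" were mixed. With cells chosen anew on part of each cell's UMIs and measured in the rest, the 6 markers together had a ratio of 1.922 (1.498 to 2.434) in wild-type. In knockout the ratio was 1.349 (0.9016 to 1.947), and among single markers only *Dnmt3b* had an interval above 1 in both libraries. Of the 75 marker UMIs measured in the chosen wild-type cells, 61 were *Dnmt3b*. With cells chosen by 5 markers and the sixth measured, the pooled ratio was 1.13 (0.82 to 1.53) in wild-type. It was 1.08 (0.688 to 1.63) in knockout, and no single marker had an interval off 1 in either library. Other primed transcripts were at 1.236 (1.053 to 1.443) in knockout and 0.9596 (0.8221 to 1.114) in wild-type. Naive transcripts were at 0.9271 (0.8845 to 0.9713) in wild-type and 0.9928 (0.9399 to 1.048) in knockout. With *Dnmt3b* left out of the choice the 1.236 became 1.04 (0.874 to 1.24) and the 0.9271 became 1.01 (0.96 to 1.05). With the top 10% the 1.236 became 1.09 (0.974 to 1.22). The differences between libraries were not tested. Outside the rule, 0 of 3154 genes (0.0%) were 1.5-fold higher in both libraries, so the cells are described by the rule and by *Dnmt3b*, the leading marker.

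Single cells were measured by inDrop, a droplet method in which each captured RNA molecule carries a unique molecular identifier (UMI), in 1 library of each genotype. Both came from E14 ES cells, a line derived from the inner cell mass, grown for 2 days on gelatin with mouse embryonic fibroblast feeders in medium with LIF, the MEK inhibitor PD03259010 and the GSK3 inhibitor CHIR99021 (2i). The wild-type library is clone a2.1, which went through the transfection without losing the gene and is labelled untreated, and the *Lin28a* knockout library is clone a3.5, made with CRISPR/Cas9 and a guide to the second exon of *Lin28a*. Each genotype is therefore 1 clone and 1 library. A difference between the libraries cannot be told apart from a difference between clones or runs, no test is possible, and all intervals are 95% intervals that cover counting error only. Lower RNA per cell and fewer cells of a type cannot be told apart in summed counts.

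An eligible cell had at least 2000 UMIs, 0.5% to 20% of them from mitochondrial (mt) genes, at least 5% from ribosomal protein (RP) genes and less than 0.3% from *Col1a1*, *Col1a2* and *Col3a1*, collagens that mark the feeders. Of 4329 wild-type and 6060 knockout barcodes, which held 12079546 and 10027710 UMIs, 1642 and 1110 reached 2000 UMIs. The mt minimum took out 239 and 279 of these. *Lin28a*, the targeted gene, was at 117.9 CPM (UMIs per 1000000) in the other wild-type cells and at 42.49 CPM in the other knockout cells, so its transcript was still counted in the library labelled knockout.

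ES cells in 2i are held in naive pluripotency, the state of the preimplantation epiblast, by blocking ERK signalling and stabilising beta-catenin. When they leave it they pass to a primed state like the postimplantation epiblast, in which *Zfp42*, *Klf4*, *Esrrb* and *Tbx3* are shut down, *Otx2*, *Fgf5* and *Pou3f1* come on, and the de novo DNA methyltransferases rise while the genome is remethylated. *Pou5f1* and *Sox2* are used in both states. LIN28A is an RNA-binding protein that blocks the maturation of let-7 microRNAs and is itself expressed in pluripotent cells.

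The choice rested on few molecules. A marker-rich wild-type cell had a lowest, median and highest count of 1, 3 and 7 marker UMIs, and a knockout one of 1, 3 and 8. As a share of the cell's UMIs these were 413.9, 517.7 and 1010 CPM in wild-type and 326.3, 382.6 and 1005 CPM in knockout. In 50 of 68 and 31 of 39 marker-rich cells there were at most 3 marker UMIs, and in 4 and 9 there was 1. At least 5 were seen in 9 and 4 cells. The other cells had a median of 0 and a highest count of 6 in wild-type and 5 in knockout. Of them 55.8% in wild-type and 54.86% in knockout had no marker UMI, and 26 and 29 cells had 3. These values chose the cells and are given as a description.

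There was no gap at the limit. The last 3 wild-type cells inside it had 422.5, 416.0 and 413.9 CPM, and the first 3 outside had 412.4, 410.0 and 409.6 CPM. In knockout the last 3 inside had 331.3, 326.6 and 326.3 CPM and the first 3 outside 322.0, 316.1 and 314.1 CPM. The last knockout cell taken had 1 marker UMI among 3065. The top wild-type cell had 5 *Dnmt3b* UMIs and 1 *Pim2* UMI among 5941, and the top knockout cell had 3 *Otx2* UMIs, and no other marker, among 2984.

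**Figure D1:**
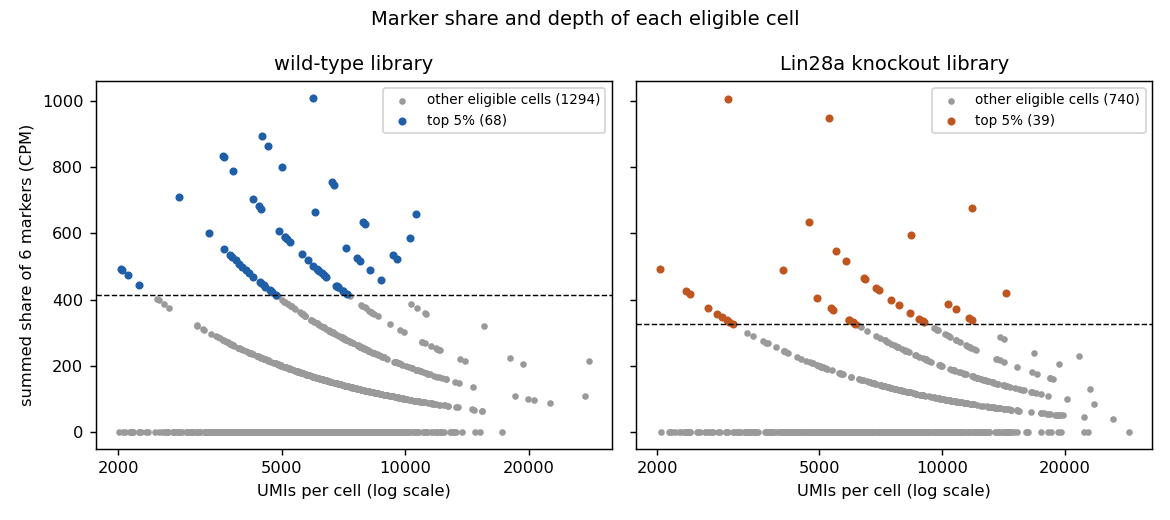
Summed share of the 6 markers (CPM, y axis) against UMIs per cell (log scale, x axis) for each eligible cell of the wild-type (left) and *Lin28a* knockout (right) library. Coloured points are the 68 and 39 marker-rich cells, grey points the 1294 and 740 other cells, and the dashed line is the lowest share taken (413.9 and 326.3 CPM). Cells lie on curves of 1, 2, 3 and more marker UMIs, and no gap separates the coloured from the grey points.

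Depth moved with the choice. The marker-rich cells had a median of 5089 UMIs against 6397 in the other wild-type cells, and of 5922 against 8174 in knockout. With eligible cells ordered by UMIs and divided into 5 bins, the bins from shallow to deep held 26, 13, 16, 8 and 5 wild-type and 13, 13, 7, 5 and 1 knockout marker-rich cells. The marker level itself, from the shallowest to the deepest bin, was 114.8, 114.9, 111.4, 109.7 and 103.1 CPM in wild-type and 73.23, 84.49, 91.43, 104.0 and 81.39 CPM in knockout. Spearman's rho of marker share with UMIs per cell was 0.08636 over the 1362 wild-type and 0.1922 over the 779 knockout cells. As an alternative the top 5% was taken within each bin, which kept 79.41% of them in wild-type and 74.36% in knockout. For gene lists, values from this choice are given below where they moved an interval on or off 1. Scrublet, which scores cells against simulated doublets, called 0 of 68 and 2 of 39 marker-rich cells, beside 27 of 1362 and 17 of 779 eligible cells.

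*Dnmt3b* (ENSMUSG00000027478.15, chromosome 2, 153649450 to 153687730, plus strand, GRCm38), a de novo DNA methyltransferase, made up most of the signal: 75.0% of the 208 marker UMIs of the wild-type marker-rich cells and 67.29% of the 107 in knockout. A *Dnmt3b* UMI was found in 65 of 68 and 33 of 39 of them, and 32 and 14 had *Dnmt3b* and no other marker. The level was 417.0 CPM (354.2 to 487.8) against 66.76 CPM in the other wild-type cells, and 289.7 CPM (226.7 to 364.8) against 47.97 CPM in knockout. The other cells were thus not without the transcript: 34.23% and 32.3% of them had at least 1 *Dnmt3b* UMI. Feeder-like barcodes, those with 0.3% or more collagen UMIs, had 4.685 CPM (2 UMIs in 42 cells, median depth 9291.5 UMIs) and 9.654 CPM (1 UMI in 13 cells, median depth 7134 UMIs). Barcodes under 500 UMIs had 61.5 and 54.96 CPM, close to the other cells.

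The 5 other markers were sparse. *Pou3f1*, which encodes a POU-domain transcription factor, had 24 UMIs in 18 of the 68 wild-type and 10 UMIs in 9 of the 39 knockout marker-rich cells. *Pim2*, a serine/threonine kinase, had 17 UMIs in 15 cells and 16 UMIs in 12 cells. *Lef1*, a transcription factor that acts with beta-catenin, had 8 UMIs in 7 cells and 4 UMIs in 4 cells. *Otx2*, a homeobox transcription factor of the primed epiblast and forebrain, had 3 UMIs in 3 wild-type cells, and its 3 knockout UMIs were all in 1 cell. *Fgf5*, a secreted growth factor and the classical transcript of the postimplantation epiblast, had 0 UMIs in wild-type, which allows up to 8.02 CPM, and 2 UMIs in 2 knockout cells. In the 42 wild-type feeder-like barcodes *Lef1* had 4 UMIs and *Pou3f1* 3, or 9.37 and 7.028 CPM. The other wild-type cells had 3.753 and 8.075 CPM of these. *Pim2*, *Otx2* and *Fgf5* had 0 UMIs in the feeder-like barcodes. At least 3 different markers were together in 5 of 68 and 3 of 39 cells. Among the other cells, 3 different markers were together in 1 wild-type and 6 knockout cells, and 4 in 1 wild-type cell.

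Rank correlations between pairs of markers were small. Over the 1362 and 779 eligible cells, Spearman's rho for the UMI shares of each pair of markers ran from -0.02494 to 0.08499 in wild-type and from -0.03469 to 0.06125 in knockout. The shares of a cell have one denominator and most are 0. These values are therefore a description only and cannot tell whether the markers go together from cell to cell. The pair of *Otx2* and *Lef1* gave the highest value in wild-type and *Dnmt3b* with *Pim2* the highest in knockout.

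To measure the markers in molecules that took no part in the choice, each cell's UMIs were divided at random into 2 parts with equal chance, the top 5% were chosen on one part and measured in the other, and both directions were pooled. *Dnmt3b* was then at 164.7 CPM in the chosen and 77.53 CPM in the other wild-type cells, a ratio of 2.125 (1.608 to 2.764), and at 102.1 and 55.03 CPM in knockout, a ratio of 1.855 (1.196 to 2.764). Both intervals lie above 1, while the ratios that the rule itself fixed were about 6. The cells chosen on a part need not be the marker-rich cells. The intervals do not cover the variation of this single random division. For the sum of the 6 markers the ratio was 1.922 (1.498 to 2.434) in wild-type and 1.349 (0.9016 to 1.947) in knockout. The knockout interval lay above 1 in cells with at least 5000 UMIs, at 1.83 (1.3 to 2.49), with the top 10%, at 1.37 (1.06 to 1.76), and without doublets, at 1.49 (1.02 to 2.11). With *Dnmt3b* left out of the score, the 5 other markers together were also higher in the measured part in wild-type, at 1.95 (1.17 to 3.08), and were at 1.22 (0.576 to 2.29) in knockout. Taken singly, *Pou3f1* gave 1.602 (0.5724 to 3.626) and 0.7257 (0.08621 to 2.72), and *Pim2* 1.277 (0.4052 to 3.089) and 0.3346 (0.008363 to 1.92). *Lef1* gave 1.876 (0.3704 to 5.911) and 0.8587 (0.02105 to 5.166). *Otx2* and *Fgf5* had 0 UMIs in the chosen cells of both libraries.

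When the cells were chosen by 5 markers and the sixth was measured, no marker's interval lay away from 1 in either library. *Dnmt3b* was at 90.47 CPM in wild-type cells chosen by the other 5 and at 80.69 CPM in the rest, a ratio of 1.121 (0.756 to 1.606). In knockout it was at 74.96 and 56.12 CPM, a ratio of 1.336 (0.7828 to 2.141). *Pim2* had the highest ratios, 1.788 (0.6992 to 3.836) from 7 UMIs and 1.709 (0.5389 to 4.174) from 5 UMIs. Pooled over the 6 markers the ratios were 1.13 (0.82 to 1.53) and 1.08 (0.688 to 1.63). With *Dnmt3b* left out of the score the pooled ratio was 1.12 (0.554 to 2.05) in wild-type. In knockout it was then 0.241 (0.029 to 0.882), with an interval below 1. Where an upper bound lies above 1, an excess of up to that bound was not excluded by so few molecules.

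**Figure D2:**
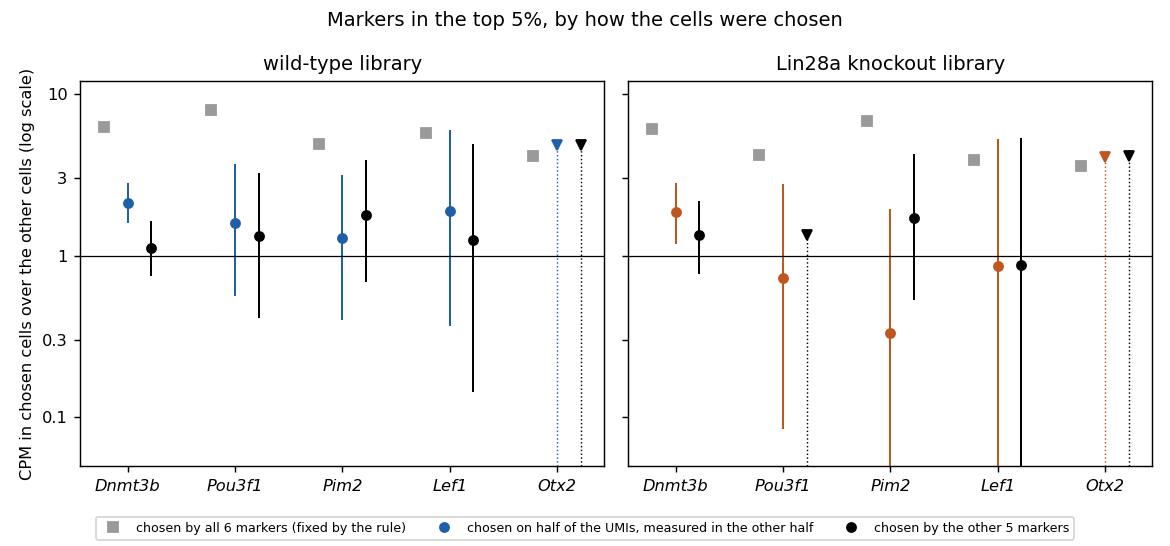
Ratio of CPM in the chosen over the other cells (log scale, y axis) for 5 markers (x axis) in the wild-type (left) and *Lin28a* knockout (right) library. Grey squares are the ratios fixed by the rule, coloured points are cells chosen on one part of the UMIs and measured in the other, and black points are cells chosen by the other 5 markers; lines are 95% counting intervals, cut at the lower edge of the plot, and a triangle with a dotted line is the upper bound for 0 UMIs. Only the coloured *Dnmt3b* points, 2.125 and 1.855, have intervals above 1; *Fgf5*, with at most 9 UMIs per library, is not drawn.

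Other transcripts of the primed epiblast were higher as a list beyond counting error in the knockout library but not in wild-type; the difference between libraries was not tested. The 21 listed genes outside the rule were at 481.2 CPM in the wild-type marker-rich cells and 501.4 CPM in the other cells, a ratio of 0.9596 (0.8221 to 1.114). In knockout they were at 675.9 and 546.8 CPM, a ratio of 1.236 (1.053 to 1.443), beside 1.04 (0.874 to 1.24) with *Dnmt3b* left out of the score and 1.09 (0.974 to 1.22) with the top 10%. Within depth bins the ratios were 1.113 (0.9782 to 1.263) in wild-type, on the other side of 1 from the value above, and 1.273 (1.112 to 1.451) in knockout. The gene with the most UMIs in the list was *Utf1*, a chromatin-associated factor also used in naive cells, with ratios of 1.008 (0.7719 to 1.294) and 1.311 (0.9969 to 1.696). *Zic5*, a zinc-finger transcription factor, was at 1.022 (0.6347 to 1.564) and 1.031 (0.5086 to 1.872), and *Nodal*, a TGF-beta family ligand, at 1.222 (0.748 to 1.893) and 0.9352 (0.53 to 1.536). *Etv4*, a target of FGF and ERK signalling, was at 0.7901 (0.3372 to 1.582) and 1.313 (0.7414 to 2.165). *Foxd3*, a forkhead transcription factor, went the other way, at 0.452 (0.09222 to 1.346) from 3 and 156 UMIs and 0.1621 (0.004079 to 0.9159) from 1 and 163 UMIs. *T*, *Fgf15* and *Sall2* had 0 UMIs in the marker-rich cells of both libraries and between 4 and 14 in the other cells, so a difference was not detectable at this depth. Of the other sparse genes of the list, only *Cdh2*, *Lin28b* and *Sox3* had intervals off 1, all in knockout. *Cdh2*, N-cadherin, was at 6.217 (1.522 to 19.06) in knockout and had 0 UMIs in the wild-type marker-rich cells. *Lin28b* was at 5.284 (1.313 to 15.77) in knockout and 0.6716 (0.01654 to 3.995) in wild-type. *Sox3* was at 4.065 (1.031 to 11.72) and 0.6353 (0.01567 to 3.766). Each rested on 4 UMIs in the knockout and at most 1 in the wild-type marker-rich cells. Of the 21 genes, 2 had at least 400 UMIs over the eligible cells of each library, of which 1 was higher in both, where 24.8% of all 3154 genes were higher in both at any fold.

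The naive transcripts were present in the marker-rich cells at nearly the level of the other cells. The 19 listed genes were at 4937 CPM against 5326 CPM in wild-type, a ratio of 0.9271 (0.8845 to 0.9713), and at 5504 against 5544 CPM in knockout, a ratio of 0.9928 (0.9399 to 1.048). Per cell, the list's lowest, median and highest level was 1920, 4980 and 8515 CPM in the wild-type marker-rich cells, inside the 1905 to 9804 CPM of the other cells. In knockout it was 2837, 5405 and 7647 CPM, also inside the range of the others, so no marker-rich cell was without naive transcripts. The wild-type value was 1.01 when *Dnmt3b* was left out of the score. Of 15 naive genes with at least 400 UMIs, 6 were higher and 4 lower in both libraries, beside the 24.8% of all genes that were higher and 27.8% that were lower in both at any fold.

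Among single naive genes, *Zfp42* (Rex1), a zinc-finger protein used as the reporter of naive cells, had ratios of 0.9605 (0.8504 to 1.081) and 1.006 (0.8532 to 1.179). *Nanog*, a homeobox factor that sustains self-renewal, was at 1.025 (0.8448 to 1.232) and 1.171 (0.9406 to 1.441). *Klf4* was at 0.8944 (0.7739 to 1.029) and 0.9237 (0.7683 to 1.102), and *Esrrb*, an orphan nuclear receptor, at 0.8891 (0.6999 to 1.115) and 1.134 (0.8975 to 1.414). These 4 genes did not separate the groups in either library. *Dppa5a*, an RNA-binding protein of pluripotent cells, was at 0.8297 (0.7405 to 0.9268) in wild-type and 0.9276 (0.8202 to 1.045) in knockout. *Tdh*, threonine dehydrogenase of mouse ES cells, was at 0.7915 (0.6603 to 0.9415) and 1.059 (0.8776 to 1.267). *Tbx3*, a T-box factor, was at 0.9239 (0.7573 to 1.117) and 0.7005 (0.5164 to 0.9301). Each of these 3 had an interval below 1 in 1 library only. *Mybl2*, a cell cycle transcription factor, had one above 1 in knockout, at 1.381 (1.076 to 1.747), beside 1.062 (0.7695 to 1.432) in wild-type. The differences between libraries were not tested.

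The core pluripotency genes were at the same level within counting error, with list ratios of 1.014 (0.9517 to 1.08) and 1.013 (0.9394 to 1.091). *Pou5f1* (Oct4) was at 836.7 CPM against 829.5 CPM in wild-type and 1046 against 1045 CPM in knockout, ratios of 1.009 (0.898 to 1.13) and 1.001 (0.8808 to 1.133). *Sox2* was at 0.8298 (0.6168 to 1.094) and 0.8157 (0.48 to 1.301). *Dppa2*, a chromatin factor, was at 1.142 (0.8336 to 1.531) and 1.571 (1.136 to 2.123).

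The list for DNA methylation, taken without *Dnmt3b*, holds genes that place, keep and remove the mark. Of 6 genes with at least 400 UMIs, 5 were higher in both libraries, beside 24.8% of all genes, and none past 1.5-fold in both. The 5 include *Uhrf1*, whose ratios were close to 1, and *Tet1*, *Tet2* and *Tdg*, which act in demethylation. The list ratio was 1.172 (1.082 to 1.267) in wild-type and 1.062 (0.943 to 1.193) in knockout. *Dnmt3l*, the catalytically inactive partner of the de novo methyltransferases, had 40 UMIs in the marker-rich and 428 in the other wild-type cells, 106.9 against 48.68 CPM, a ratio of 2.197 (1.547 to 3.041). In knockout it had 13 and 262 UMIs, 52.3 against 39.9 CPM, a ratio of 1.311 (0.6888 to 2.281). In cells chosen without *Dnmt3b* the ratios were 1.39 (0.882 to 2.1) and 0.82 (0.351 to 1.64), and the knockout ratio was also below 1 with the top 10%, at 0.893 (0.543 to 1.39), and the top 2.5%, at 0.619 (0.127 to 1.83). *Hells*, a chromatin remodeller needed for DNA methylation, was at 1.306 (1.111 to 1.526) and 1.28 (0.9551 to 1.682). Its wild-type interval reached 1 within depth bins, at 1.13 (0.968 to 1.31), with at least 5000 UMIs, at 1.14 (0.952 to 1.36), and with the top 10%, at 1.1 (0.977 to 1.24). Its knockout ratio was 0.845 (0.586 to 1.18) in cells chosen without *Dnmt3b*. *Dnmt3a*, the other de novo methyltransferase, was at 1.445 (0.7964 to 2.431) and 1.157 (0.4174 to 2.584) from 15 and 6 UMIs. The maintenance genes *Dnmt1*, at 1.026 (0.7894 to 1.313) and 0.8189 (0.5642 to 1.151), and *Uhrf1*, at 1.004 (0.7974 to 1.25) and 1.05 (0.7951 to 1.362), did not differ beyond counting error. *Tet1*, which oxidises methylated cytosine, was at 1.101 (0.9492 to 1.27) and 1.016 (0.8036 to 1.269).

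Of the signalling lists, the FGF and ERK list was at 1.066 (0.9704 to 1.169) and 0.9914 (0.8707 to 1.124), the Wnt list at 0.9524 (0.8304 to 1.088) and 1.042 (0.895 to 1.206), the latter 1.156 (1.023 to 1.303) within depth bins, and the LIF and Stat3 list at 0.9681 (0.8914 to 1.05) and 1.034 (0.935 to 1.141). In these lists *Axin2* was at 0.8673 (0.4112 to 1.62) and 2.471 (1.283 to 4.366), and *Stat3* at 0.8437 (0.6632 to 1.059) and 1.275 (1.001 to 1.604). *Dusp6* was at 1.613 (1.059 to 2.367) and 0.6626 (0.2836 to 1.321), and *Fgfr1* at 1.036 (0.6435 to 1.587) and 0.4923 (0.2238 to 0.9424). No other gene of the lists above had an interval off 1. The Nodal and Activin list, which includes the co-receptor *Tdgf1* and the ligand *Gdf3*, was at 0.8518 (0.7491 to 0.9648) in wild-type and 0.9583 (0.8289 to 1.102) in knockout. *Tdgf1* was at 0.872 (0.7129 to 1.057) and 0.8044 (0.626 to 1.019), and *Smad4*, the shared effector of the pathway, at 0.58 (0.3473 to 0.912) and 1.141 (0.6906 to 1.783). *Smad2* was at 0.2249 (0.02706 to 0.8227) in wild-type, from 2 and 209 UMIs, and at 1.057 (0.3818 to 2.355) in knockout. The paralogs of the 6 rule genes, which include *Dnmt3a*, *Dnmt3l*, *Pim1* and *Tcf7l1*, were at 1.093 (0.973 to 1.224) and 1.121 (0.9845 to 1.271). Within depth bins both intervals of this list lay above 1, at 1.138 (1.027 to 1.258) and 1.171 (1.051 to 1.302).

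*Lin28a* itself had 60 UMIs in the wild-type marker-rich cells, 160.4 CPM against 117.9 CPM in the other cells, a ratio of 1.36 (1.03 to 1.765), whose interval reached 1 with the top 10%, at 1.09 (0.878 to 1.33), and with at least 5000 UMIs, at 1.33 (0.991 to 1.76). In knockout it had 10 UMIs, 40.23 against 42.49 CPM, a ratio of 0.947 (0.4491 to 1.768). *Hmga2*, a let-7 target, was at 1.847 (1.139 to 2.852) in wild-type from 22 UMIs and at 0.9436 (0.1908 to 2.854) in knockout from 3 UMIs. *Igf2bp1*, an RNA-binding protein and let-7 target, was at 1.146 (1.029 to 1.274) and 0.9998 (0.8523 to 1.166). The whole list of *Lin28* genes and let-7 targets was at 1.036 (0.9709 to 1.103) and 1.035 (0.9519 to 1.124).

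Markers of other lineages were counted for the whole list in each case. The 12 primitive endoderm genes had 24 UMIs in the wild-type marker-rich cells, 64.16 CPM against 37.42 CPM, a ratio of 1.715 (1.083 to 2.596), and 15 UMIs in knockout, 60.35 against 44.01 CPM, a ratio of 1.371 (0.7576 to 2.3). With the top 5% taken within depth bins the ratios were 1.303 (0.8143 to 1.989) and 1.037 (0.5848 to 1.713). Among the defining factors, *Sox17* had 0 UMIs in both groups of marker-rich cells and 11 and 9 in the other cells, and *Gata4* had 1 in each group and 15 and 12 in the others. *Gata6* had 1 UMI in the wild-type marker-rich cells and 4 in the others, and 3 and 3 in knockout, a ratio of 26.42 (3.539 to 197.3). *Col4a2*, a basement membrane collagen, was at 6.268 (1.514 to 19.67) in wild-type from 4 and 15 UMIs and at 5.284 (0.1117 to 47.22) in knockout from 1 and 5 UMIs. The 10 trophoblast genes were at 1.019 (0.6659 to 1.497) and 1.593 (1.009 to 2.405) from 27 and 24 UMIs, and at 1.161 (0.8134 to 1.611) and 1.532 (1.033 to 2.198) within depth bins. *Tfap2c* made up 13 of the 27 and 11 of the 24 UMIs, at 0.9857 (0.5189 to 1.711) and 1.772 (0.8676 to 3.255). *Eomes*, also in the mesendoderm list, made up 1 and 5. *Cdx2* and *Hand1* were at 0 in the marker-rich cells, *Ascl2* was at 7.206 (1.291 to 27.28) in knockout from 3 and 11 UMIs and 2.938 (0.06621 to 21.91) in wild-type, and no other gene of the list had an interval off 1. The 9 neuroectoderm genes were at 1.106 (0.6688 to 1.73) and 1.387 (0.8492 to 2.15) from 20 and 21 UMIs, and the knockout value was 1.536 (1.036 to 2.204) within depth bins. *Nes* was at 4.701 (1.405 to 12.5) in wild-type from 5 and 25 UMIs and had 0 UMIs in the knockout marker-rich cells. *Sox3* and *Cdh2*, also in the other primed list, had 4 UMIs each in the knockout marker-rich cells. The 9 mesendoderm genes had 2 and 5 UMIs, ratios of 0.2626 (0.03156 to 0.9626) and 1.074 (0.3427 to 2.575), with 0.4224 (0.1138 to 1.101) in wild-type within depth bins, and the 23 genes of 2-cell-like cells 1 UMI in each library. The feeder fibroblast list, which chose the cells in part through 3 of its collagens, was at 0.905 (0.7927 to 1.029) and 1.064 (0.9166 to 1.228).

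Cell cycle and growth genes differed little. The S phase list was at 1.011 (0.9622 to 1.062) and 1.02 (0.957 to 1.087). The list for G2 and mitosis was at 1.08 (1.024 to 1.138) in wild-type and 0.9532 (0.8875 to 1.023) in knockout. In the wild-type library *Tpx2*, a spindle assembly factor, was at 1.615 (1.297 to 1.989), and in knockout at 1.088 (0.739 to 1.549). Nucleolar genes were at 1.023 (0.9926 to 1.054) and 1.039 (0.995 to 1.084), and glycolytic genes at 0.9248 (0.8886 to 0.9621) and 0.9696 (0.9307 to 1.01). *Gapdh*, a glycolytic enzyme, was at 0.9172 (0.8665 to 0.9702) and 0.951 (0.8994 to 1.005). Of 21 nucleolar genes with at least 400 UMIs, 6 were higher and 7 lower in both libraries, beside 24.8% and 27.8% of all genes. Of the nucleolar list only *Nop14* had intervals above 1 in both, at 1.356 (1.094 to 1.663) and 1.546 (1.114 to 2.096). The p53 target list was at 1.033 (0.9367 to 1.136) and 1.077 (0.9635 to 1.2).

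RNA composition moved slightly with the choice. RP genes made up 8.736% of UMIs in the wild-type marker-rich and 8.952% in the other cells, a ratio of 0.9759 (0.9651 to 0.9867), and 9.257% against 9.756% in knockout, a ratio of 0.9489 (0.9364 to 0.9614). The mt share was 1.696% against 1.564%, a ratio of 1.084 (1.057 to 1.112), and 2.318% against 2.057%, a ratio of 1.127 (1.097 to 1.157). Both shares were also used to choose eligible cells. In knockout cells chosen without *Dnmt3b* neither difference was kept: RP was at 1.02 (1.0 to 1.03) and mt at 0.996 (0.968 to 1.02). Of 11 mt-encoded genes with at least 400 UMIs, 8 were higher in both libraries, beside 24.8% of all genes, *mt-Nd2* of complex I at 1.262 (1.17 to 1.359) and 1.216 (1.103 to 1.339) among them. The nuclear long noncoding RNAs were at 1.155 (1.109 to 1.202) and 1.175 (1.099 to 1.255). *Malat1*, a nuclear-retained RNA and the most abundant of them, was at 1.19 (1.135 to 1.247) and 1.224 (1.119 to 1.336). With depth bins the knockout list was at 0.9811 (0.9224 to 1.043) and *Malat1* at 0.994. The part of RNA quality in the marker results was not tested.

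**Figure D3:**
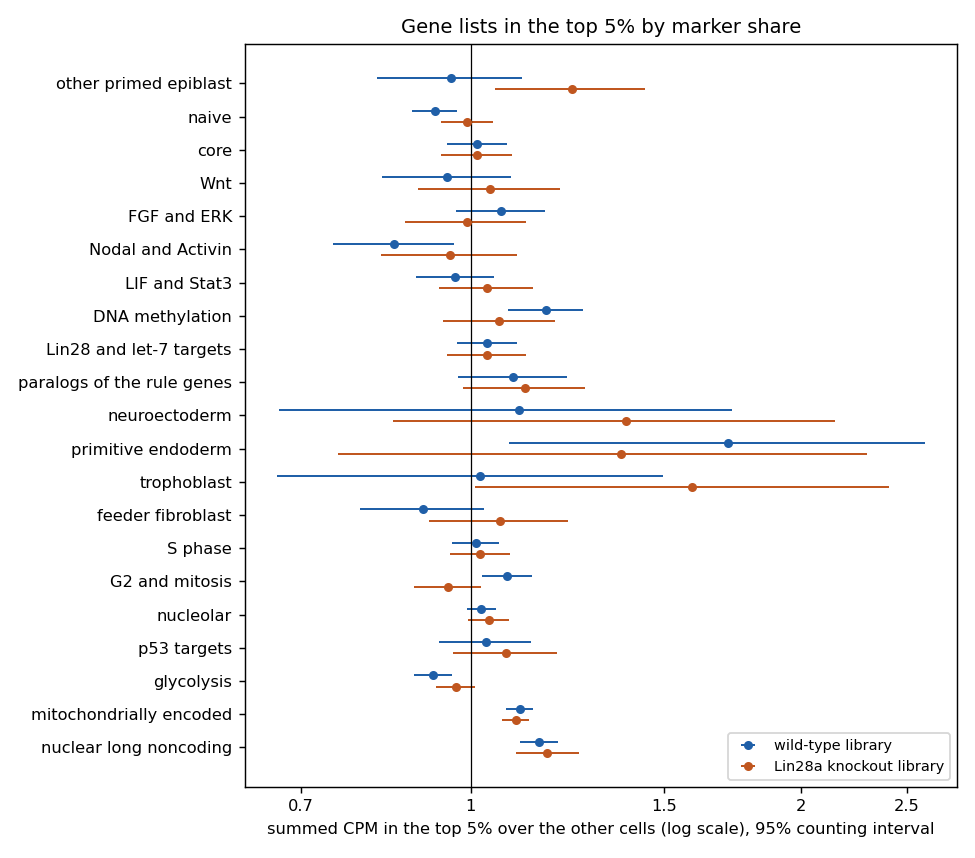
Ratio of summed CPM in the marker-rich over the other cells (log scale, x axis) for 21 of the 23 gene lists (y axis) in the wild-type (blue) and *Lin28a* knockout (orange) library, with 95% counting intervals. Most lists lie within 0.9 to 1.1; the mt-encoded and nuclear long noncoding lists have intervals above 1 in both libraries, and the mesendoderm and 2C lists, with at most 5 UMIs in the marker-rich cells, are not drawn.

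Across all genes the marker-rich cells differed from the other cells by little in either library. The 3154 genes outside the rule with at least 400 UMIs in each library had a median ratio of 0.9969 in wild-type and 0.993 in knockout, and 5th to 95th percentiles of 0.7328 to 1.301 and 0.6903 to 1.351. In wild-type 25 genes (0.793%) were at least 1.5-fold higher and 66 (2.09%) at least 1.5-fold lower, and in knockout 58 (1.84%) and 126 (3.99%). In both libraries 0 (0.0%) were higher and 5 (0.159%) lower by that fold. The 5 were *Grhpr*, *Hist1h2ak*, *Slc20a1*, *Wsb2* and *Gm2099*. *Hist1h2ak* belongs to a family of near-identical histone genes, so its counts are uncertain. Of the 5 only *Slc20a1* had intervals below 1 in both libraries. With the top 5% taken within depth bins 0 genes were higher and 3 lower, and 0 of those 3 were among the 5.

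The gene with the smallest mean ratio was *Grhpr*, a glyoxylate reductase, with 5 UMIs in the wild-type marker-rich cells and 453 in the others, a ratio of 0.2594 (0.08383 to 0.6099), and 9 and 439 in knockout, a ratio of 0.5417 (0.246 to 1.038). *Slc20a1*, a phosphate transporter, was at 0.6396 (0.4076 to 0.9579) and 0.5893 (0.3475 to 0.9374). The other 8 of the 10 smallest were *Rpf2*, *F3*, *Rnaseh2b*, *Hist1h2ak*, *Gm12912*, *C77080*, *Sec61g* and *Eif4enif1*. *Rpf2*, a ribosome assembly factor, was at 0.706 (0.4083 to 1.141) and 0.2553 (0.06923 to 0.6585), and *F3*, tissue factor, at 0.967 (0.6267 to 1.43) and 0.254 (0.0689 to 0.6553).

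The gene with the largest mean ratio was *Trrap*, a scaffold of histone acetyltransferase complexes, at 1.398 (0.9752 to 1.949) and 1.796 (1.206 to 2.586). *Mdm4*, an inhibitor of p53, was at 1.203 (0.84 to 1.674) and 1.931 (1.351 to 2.686). *Cdkn1a* (p21), a p53 target and cyclin-dependent kinase inhibitor, was the one of the 10 largest with the most UMIs, 106 and 1784 in wild-type and 75 and 1290 in knockout. Its ratios were 1.397 (1.137 to 1.7) and 1.536 (1.2 to 1.94), and the knockout value was 1.07 within depth bins and 0.848 in cells chosen without *Dnmt3b*. *Trmt112*, an activator of methyltransferases, was at 1.845 (1.29 to 2.57) and 1.165 (0.7234 to 1.784), and *Pdk1*, a kinase that inhibits pyruvate dehydrogenase, at 1.186 (0.8367 to 1.636) and 1.846 (1.248 to 2.643). The other 5 were *Gm47761*, *Fkbp8*, *Zfhx3*, *Wdr33* and *Tnpo2*. *Cdkn1a* and *Gm47761* were the only 2 of the 10 with intervals above 1 in both libraries. *Gm47761* was at 1.494 (1.08 to 2.02) in wild-type, just below 1.5-fold, and at 1.526 (1.034 to 2.18) in knockout.

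**Figure D4:**
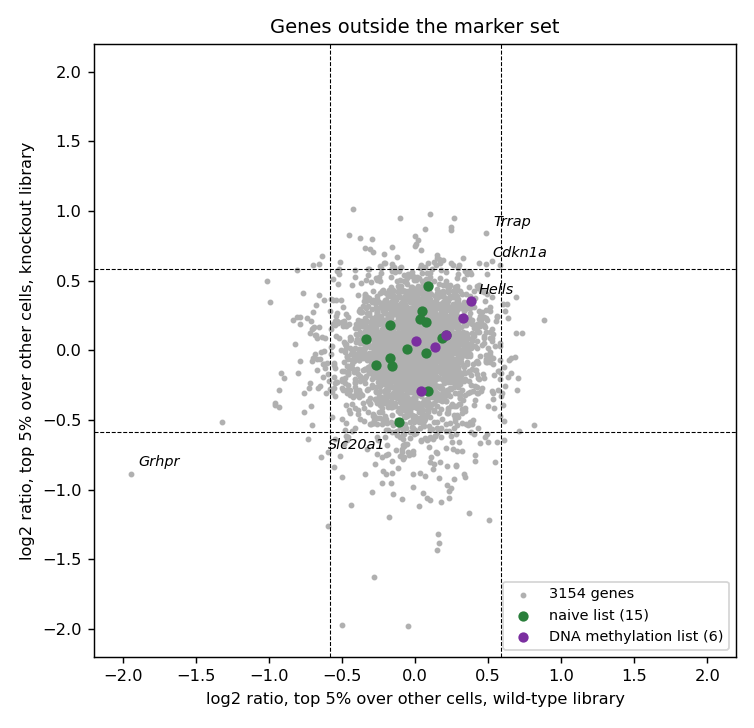
Log2 ratio of CPM in the marker-rich over the other cells in the wild-type (x axis) and *Lin28a* knockout (y axis) library for 3154 genes outside the rule (grey), with 15 naive genes in green and 6 DNA methylation genes in purple. Dashed lines mark 1.5-fold; the upper right corner past both lines is empty, and 5 genes lie in the lower left corner.

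The knockout library held less *Dnmt3b* than the wild-type library. Over all eligible cells it was at 56.78 CPM against 81.06 CPM, a knockout over wild-type ratio of 0.7006 (0.618 to 0.7932). The ratio was 0.6947 (0.5179 to 0.9242) among the marker-rich cells and 0.7185 (0.6246 to 0.8253) among the other cells; both sets were chosen on these values, at a separate limit in each library, so these 2 ratios are a description. The other 5 markers did not differ beyond counting error over all eligible cells: *Pou3f1* was at 1.034 (0.7512 to 1.417), *Pim2* at 1.071 (0.7847 to 1.456), *Lef1* at 1.017 (0.6166 to 1.662), *Otx2* at 1.681 (0.8966 to 3.192) and *Fgf5* at 2.421 (0.7286 to 9.196). The sum of the 6 was at 88.48 against 109.3 CPM, a ratio of 0.8094 (0.7304 to 0.8964).

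Because the top 5% is taken in each library, its size cannot differ between them. With the wild-type limit of 413.9 CPM used in both, 16 of 779 knockout cells (2.054%, exact binomial interval 1.178 to 3.314) stood at or above it. The 68 of 1362 wild-type cells (4.993%) set the limit. The ratio of the shares was 0.411, and 0.926 when *Dnmt3b* was left out of the score. The rule fixes the wild-type share at about 5%, so these ratios are a description and are given without intervals. Depth also differed, with a median of 8067 UMIs in knockout and 6333 in wild-type eligible cells. A share from few UMIs varies more in shallow cells, and the part of depth in these ratios was not tested. At 2000 UMIs per cell, by the hypergeometric distribution, 14.21% of wild-type and 10.05% of knockout cells would have a *Dnmt3b* UMI, and 2.548% and 1.623% would have 2 or more marker UMIs. Without thinning, 37.3% and 34.92% had a *Dnmt3b* UMI, and 17.69% and 19.51% had 2 or more marker UMIs, the latter in the other order.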

How the data were processed

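The authors built 1 matrix per library with the inDrop pipeline and deposited it as raw counts of UMIs, gene by barcode, including shallow barcodes. Per the labels' processing notes the build was mm10 and Seurat 2.3.4 was used; the aligner is not given in the sources used here. Symbols for the 54146 gene identifiers came from GENCODE M21 (GRCm38); 54079 were found once versions were dropped. Column names in the files are running numbers, so barcodes shared between the libraries could not be counted. Random capture of RNA limits each cell to a few UMIs of a low gene.

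Summed UMIs were given as CPM with exact Poisson intervals, ratios with exact conditional binomial intervals and shares with Clopper-Pearson intervals (scipy 1.17.1 in Python 3.11.15, with pandas 2.3.3). No test was made. For 0 UMIs, 3 over the group was taken as the limit. Doublets were called with Scrublet in scanpy 1.11.5 and kept. The gene ratio and the divided-UMI measure were checked on simulated data. The genes named are those of the lists, the 10 largest and 10 smallest mean ratios the same way in both libraries (at least 400 UMIs each), those past 1.5-fold in both, the 5 largest and 5 smallest knockout ratios (at least 1000 UMIs) and the 5 most like the marker share. Some genes below the 100 UMIs set for naming a listed gene were named after their values were seen. These were *Sox17*, *Gata4*, *Gata6*, *Col4a2*, *Ascl2*, *Cdh2*, *Lin28b*, *Sox3*, *Hmga2*, *Cdx2*, *Hand1*, *T*, *Fgf15*, *Sall2*, *Nes* and *Eomes*. The marker-rich cells and lists were chosen with earlier results of these data known.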

Additional observations from a re-analysis of the deposited data

How the results depend on the processing

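No paired analysis was possible because each genotype has 1 library and the labels give no replicate numbers, and no replicate could be left out. Alternatives changed how the marker-rich cells were chosen (top 10%, top 2.5%, within 5 depth bins, at least 5000 UMIs, without *Dnmt3b* in the score, without doublets), the denominator, the gene filter and the fold; those for single genes were chosen after seeing the data. Of all recomputed values, 179 kept within the main interval or, for gene counts, within 1.5 times; 39 moved past it, and 7 changed direction from a main interval that lay off 1; ratios whose main interval held 1 also crossed it in further cases, and the cause was not tested. Without *Dnmt3b* in the score, the naive ratio in wild-type was 1.01, in knockout the RP ratio was 1.02, the mt ratio 0.996, the left-out marker ratio 0.241 and the other primed ratio 1.04, the knockout over wild-type share was 0.926, *Cdkn1a* in knockout was 0.848 and *Malat1* 0.955. Within depth bins, the RP ratio in wild-type was 0.947, the mt ratio 1.12 in wild-type and 1.08 in knockout, the median UMI ratio 0.991 (from 0.796) and 1.04 (from 0.724), and *Malat1* in knockout 0.994. With at least 5000 UMIs the left-out marker ratio in wild-type was 0.789, and in knockout RP was 0.923 and mt 1.09. With the top 10% the RP ratio in wild-type was 0.957 and the mt ratio in knockout 1.16. With the top 2.5% the mt ratios were 1.05 and 1.04, and in knockout RP was 0.964 and other primed 1.47. Without doublets RP in knockout was 0.931. The genes 1.5-fold higher in both libraries numbered 4 with the top 2.5%, 52 with at least 100 UMIs and 1027 with no filter. Those lower numbered 29, 159 and 9897, and 3 within depth bins, 0 with the top 10% and 0 at 2-fold. Depth limits all marker results: the marker-rich cells had a median of 3 marker UMIs, and near the limit 1 UMI decides whether a cell is taken.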

Other observations

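Across the 1362 wild-type and 779 knockout eligible cells, the genes outside the rule whose share followed the marker share most closely by Spearman's rho, averaged over both libraries, were *Unc13d* (0.1185), *Ywhaz* (0.1048), *Far1* (0.1005), *Ccdc59* (0.09835) and *Gm43558* (0.09806). The points share a library and a denominator, and values of this size in sparse counts are no finding.

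The knockout over wild-type ratio in the marker-rich cells was also set against the same ratio in the other cells for 1226 genes, those that reached 1000 UMIs in both libraries. The 5 largest were *Eif3l* (2.01), a subunit of a translation initiation factor, *Appbp2*, *Gm47654*, *Hist1h2ao* and *Prmt5* (1.655), an arginine methyltransferase. The 5 smallest were *Gm14681* (0.4652), *Gm5244*, *Rplp1-ps1*, *Snrpd1* (0.5459), a core spliceosomal protein, and *Ttll3*. *Rplp1-ps1* is annotated by its name as a pseudogene, whose reads cannot be told apart from those of its parent gene with certainty. These ratios were not tested.

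The marker level was about the same in barcodes far too shallow to be eligible: below 500 UMIs the 6 markers together were at 107.0 CPM (78.65 to 142.4) in 2472 wild-type and 92.1 CPM (70.61 to 118.1) in 4423 knockout barcodes, beside 109.3 and 88.48 CPM in eligible cells.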
